A study of Mus musculus with 9 samples.

Results

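The genes described are those for fatty acid uptake and mitochondrial β-oxidation, chosen by name from a list of 35. All 35 were among the 13192 genes counted in heart apex RNA. They comprise 29 transport proteins and enzymes and 6 transcriptional regulators. The samples were 5 AAV-Osm and 4 AAV-Null hearts. AAV-Osm mice carried an adeno-associated virus encoding the cytokine oncostatin M, and AAV-Null mice received the empty control virus. Every mouse was a wild-type C57BL/6J male given 1e+11 viral particles in the right gastrocnemius, a leg muscle, at 10 weeks of age, and hearts were taken 12 weeks later. The virus was injected into leg muscle, and the comparison asks whether the heart's fatty acid genes then differ.

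The adult heart draws most of its energy from fatty acids. CD36 and the transporter encoded by Slc27a1 bring them across the cell membrane, fatty acid binding proteins carry them in the cytosol, and acyl-CoA synthetases activate them. The carnitine shuttle moves the acyl groups into mitochondria, where repeated cycles of dehydrogenation, hydration, dehydrogenation and thiolysis shorten the chain. Electrons from the first step pass through the electron transfer flavoprotein to the respiratory chain. PPARα, its partner RXRα, the PGC-1 coactivators and ERRα drive transcription of these genes in heart muscle.

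The libraries held 11841106 to 30625134 counts. The 14 cardiomyocyte markers examined, among them Myh6 and Tnnt2, were all present and summed to 101453 to 134703 CPM (counts relative to the library total, with TMM factors) in AAV-Osm and 100125 to 128823 CPM in AAV-Null hearts. Osm itself was not analysed here, which leaves the labels without a check by the delivered gene. Separate mice for each library are not stated in the labels, and the p-values therefore rest on the spread among these 9 samples, which may be technical.

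The sequences upstream of a few members are shown to place the partner subunits whose values are compared further on, and were not related to those values. Hadha and Hadhb encode the α and β subunits of the mitochondrial trifunctional protein and lie head to head on chromosome 5. In the deposited annotation (mm10) Hadha spans chr5:30118304-30154980 on the minus strand and Hadhb chr5:30155253-30184593 on the plus strand, leaving 272 bases between their starts. The Hadhb promoter window from RefSeq (GRCm38.p6, chr5:30155003-30155302, plus strand) has in capitals the 250 bases before the start, all of which lie between the starts of these genes. Etfa and Etfb encode the α and β subunits of the electron transfer flavoprotein and lie on different chromosomes. Their windows are chr9:55512194-55512493 on the minus strand and chr7:43443822-43444121 on the plus strand, and capitals in Etfb mark a match to the NRF1 motif, which is GCGCA, any base, then GCGC.
Hadhb: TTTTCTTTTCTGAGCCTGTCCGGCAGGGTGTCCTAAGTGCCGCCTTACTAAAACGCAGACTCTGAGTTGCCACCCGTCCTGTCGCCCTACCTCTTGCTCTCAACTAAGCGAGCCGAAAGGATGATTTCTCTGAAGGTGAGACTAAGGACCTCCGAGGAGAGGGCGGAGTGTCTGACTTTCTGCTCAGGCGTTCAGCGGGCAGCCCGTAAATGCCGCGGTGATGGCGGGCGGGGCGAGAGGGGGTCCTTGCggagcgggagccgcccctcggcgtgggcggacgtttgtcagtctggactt
Etfa: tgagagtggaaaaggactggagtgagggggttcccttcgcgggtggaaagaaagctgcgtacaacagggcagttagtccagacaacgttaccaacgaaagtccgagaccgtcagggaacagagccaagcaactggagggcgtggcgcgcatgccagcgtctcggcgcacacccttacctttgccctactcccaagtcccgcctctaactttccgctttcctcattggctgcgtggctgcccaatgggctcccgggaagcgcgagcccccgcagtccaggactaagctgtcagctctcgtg
Etfb: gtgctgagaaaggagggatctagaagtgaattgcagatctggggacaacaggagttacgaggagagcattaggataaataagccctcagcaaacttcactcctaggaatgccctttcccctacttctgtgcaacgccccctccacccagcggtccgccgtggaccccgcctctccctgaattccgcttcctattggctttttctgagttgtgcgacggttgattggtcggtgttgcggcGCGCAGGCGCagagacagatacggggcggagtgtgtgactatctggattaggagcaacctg

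Of the 35 members, 28 had a promoter window in that table, each running from 250 bases before to 50 bases after the start. The NRF1 motif, searched on both strands, was in the windows of Etfb, Etfdh and Ppara, 3 of 28, and in those of 5.19% of all genes with a window. The full PPAR element DR1, AGGTCA repeated after any single base, was in 0 of 28 windows and in 0.0481% of all genes. The ERR element TNAAGGTCA was likewise in 0 of 28 windows, against 1.43% of all genes. The nuclear receptor half-site AGGTCA, which is part of both elements, was in 6 of 28 (Acacb, Acadm, Acadvl, Cd36, Echs1 and Rxra) and in 18.1% of all genes. These matches describe letters in a short window and no binding was measured.

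No difference between AAV-Osm and AAV-Null hearts was detected in any of the 35 genes. In edgeR's quasi-likelihood test 0 of 35 passed an adjusted p of 0.05, where 0.121% of all genes passed (0.0834% higher and 0.0379% lower in AAV-Osm), and the smallest adjusted p among them was 0.929. At an unadjusted p under 0.05 there were 0 of 35, against 5.97% of all genes. The AAV-Osm and AAV-Null hearts overlapped for all 35, while 2.28% of all genes had groups that did not overlap. DESeq2 called 0 of 35 and 0.402% of all genes, limma-voom 0 of 35 and 0.0985%, and both gave 0 of 35 at an unadjusted p under 0.05. With sample quality weights limma-voom called 0 of 35 and 1.29% of all genes after adjustment, and 9 had an unadjusted p under 0.05, 5 higher and 4 lower, in a fit where 25.2% of all genes did.

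With all 9 libraries in the edgeR test, the 95% intervals were as follows. Of the 34 members other than Cpt1b, 34 had a 95% interval inside a 2-fold change in either direction and 28 inside a 1.5-fold change. The exceptions at 1.5-fold were Acsl1, Hadhb, Hadh, Decr1, Etfa and Ppargc1b. Without AAV-Null 3 and AAV-Null 4 these counts were 32 and 17, with Hadh and Decr1 reaching past 2-fold. Acsl1 reached past it without AAV-Null 2, and Hadh with quality weights and without AAV-Null 4 and AAV-Osm 5; in the other 17 alternatives all 34 stayed inside 2-fold. Of all 35, 23 had a positive and 12 a negative log2 fold change, with a median of 0.06, and the median over all genes was 0.01. Members took 2.29% ± 0.213 of all counts in AAV-Osm hearts (SD, n = 5) and 2.27% ± 0.118 in AAV-Null hearts (SD, n = 4).

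**Figure D1:**
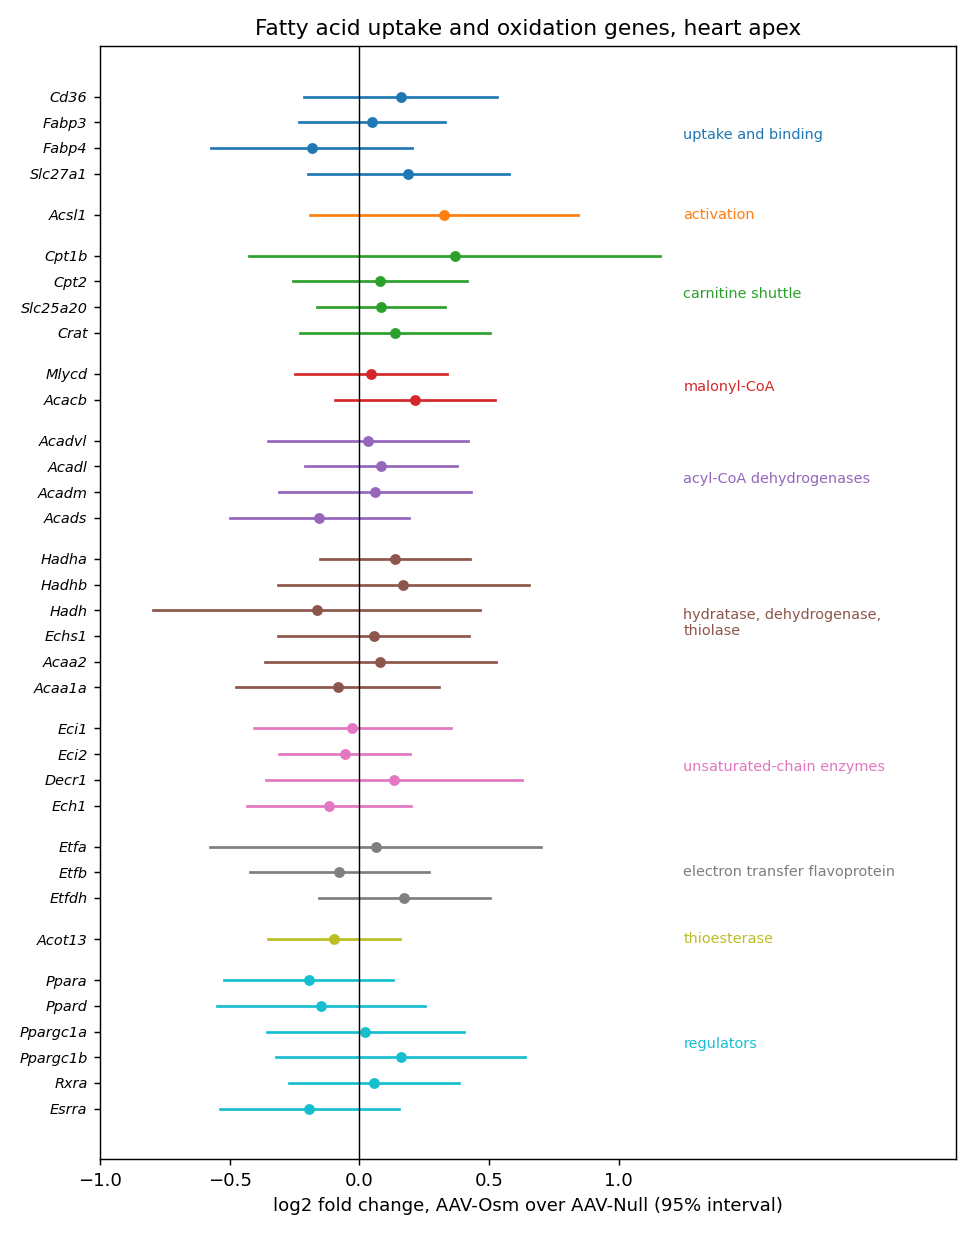
Log2 fold change (AAV-Osm over AAV-Null, x axis) of each of the 35 genes, grouped and coloured by role; points are edgeR estimates and lines their 95% intervals. All 35 lines cross 0, and the widest belongs to Cpt1b.

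Levels spanned a wide range. Per kilobase of exon, Fabp3, which encodes the heart-type fatty acid binding protein, was the most abundant, with a mean of 7191 ± 538 CPM per kilobase in AAV-Osm hearts (SD, n = 5) and 6950 ± 596 CPM per kilobase in AAV-Null hearts (SD, n = 4), and ranked 7 among all genes. Ech1, Etfb and Fabp4 came next, at a mean over the 9 libraries of 1472, 1397 and 962 CPM per kilobase, and Ech1 and Etfb did not differ beyond their spread. Mitochondrial enzymes filled most of the upper ranks, and of the 6 regulators 5 stood among the lowest 6 genes. The highest of them, Esrra, was at 67.5 ± 12.8 CPM per kilobase in AAV-Osm and 77.1 ± 11.4 CPM per kilobase in AAV-Null hearts.

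**Figure D2:**
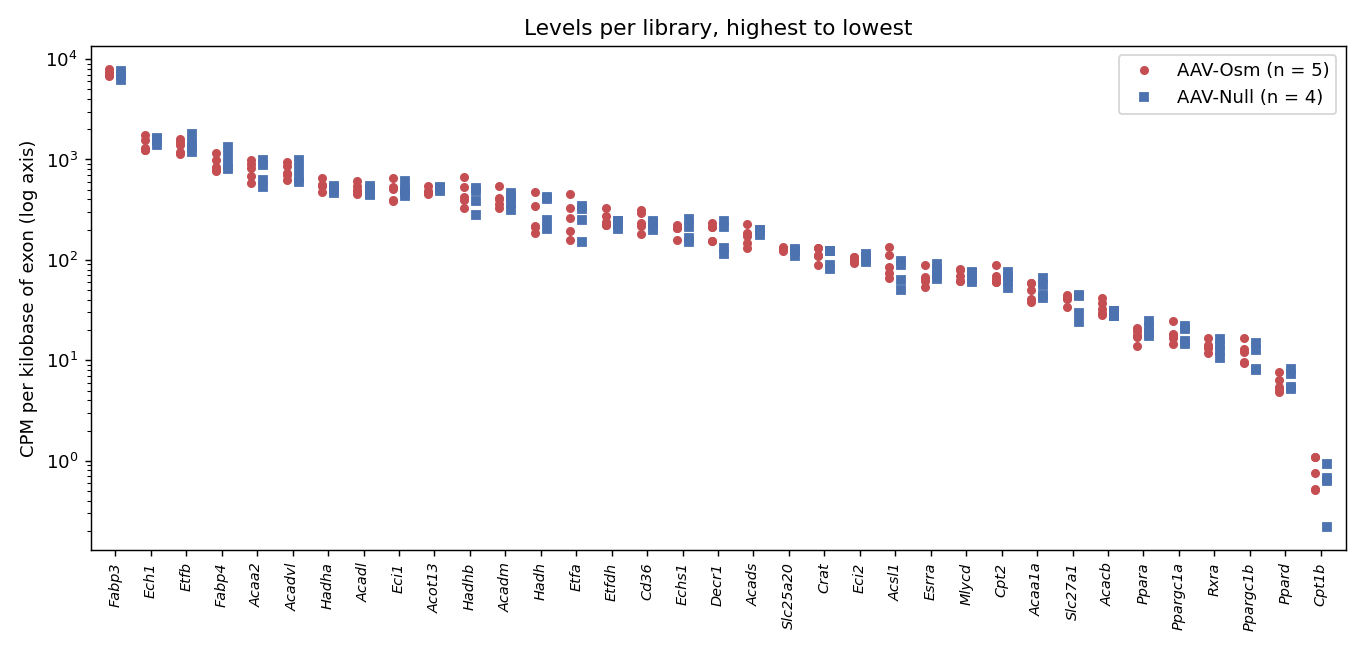
Level of each gene in each library, in CPM per kilobase of exon on a log axis, ordered by mean; circles are AAV-Osm and squares AAV-Null hearts. Fabp3 stands above the rest, Cpt1b and the regulators other than Esrra lie at the low end, and the groups overlap for every gene.

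Among the uptake and binding genes, 3 of 4 had a positive log2 fold change and 0 passed. Fabp3 had 4803, 5111, 4293, 4392 and 4414 CPM in AAV-Osm hearts 1 to 5, against 3969, 4461, 4458 and 4902 CPM in AAV-Null hearts 1 to 4. The values interleaved, and the log2 fold change was 0.05 (SE 0.13, 95% interval -0.23 to 0.33, edgeR adjusted p = 0.987). Cd36, the fatty acid translocase of cardiomyocytes and capillary endothelium, had 1163, 914, 711, 855 and 1246 CPM in AAV-Osm hearts, against 849, 964, 911 and 780.1 CPM in AAV-Null hearts. The AAV-Osm values enclosed all AAV-Null values, with AAV-Osm 1 and AAV-Osm 5 on top (log2 fold change 0.16, SE 0.17, edgeR adjusted p = 0.961). Fabp4, the adipocyte and endothelial binding protein, had 739, 545, 489.6, 500.3 and 633 CPM in AAV-Osm hearts, against 519, 570.4, 691 and 862 CPM in AAV-Null hearts. AAV-Osm 3 was the lowest and AAV-Null 4 the highest (log2 fold change -0.18, SE 0.18, edgeR adjusted p = 0.952). Also in AAV-Null 4 were the highest sums of macrophage (920 CPM over 9 of 9 markers), fibroblast (3343 CPM over 8 of 8), endothelial (846 CPM over 10 of 10) and mesothelial markers (132 CPM over 6 of 6), whose part was not tested. The table held 4 of 9 adipocyte markers, and their sum was 157 to 201 CPM in AAV-Osm and 149.7 to 169 CPM in AAV-Null hearts, nearly all of it from Plin4. Plin4 was lowest in AAV-Null 4 (133 CPM), where Adig was highest (4.74 CPM). Car3 was highest in AAV-Null 3 (12.1 CPM), followed by AAV-Null 4 (10.7 CPM), and Cfd was highest in AAV-Osm 1 (1.40 CPM). The part of adipocytes in the Fabp4 values was not tested. Adipoq, Plin1, Cidec, Lep and Retn were not analysed here. The endothelial markers summed to 694 to 781 CPM in AAV-Osm and 754 to 846 CPM in AAV-Null hearts. In such tissue RNA, fewer cells of a type and less RNA per cell cannot be told apart. Slc27a1, which encodes the transport protein FATP1, had 95.9 to 124 CPM in AAV-Osm hearts, against 124, 123, 83.6 and 68.1 CPM in AAV-Null hearts (log2 fold change 0.19, SE 0.18), with AAV-Null 3 and 4 the lowest.

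Acsl1, the main long-chain acyl-CoA synthetase gene of heart, had 459, 345, 268, 303 and 544 CPM in AAV-Osm hearts, against 364, 398, 260.3 and 204 CPM in AAV-Null hearts. AAV-Osm 5 was the highest and AAV-Null 4 the lowest, a 2.67-fold range. At 0.33 (SE 0.24, 95% interval -0.19 to 0.84, edgeR adjusted p = 0.934) its log2 fold change was the largest among members other than Cpt1b.

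In the carnitine shuttle all 4 genes had a positive log2 fold change and 0 passed. Slc25a20, which encodes the carnitine-acylcarnitine carrier of the inner membrane, was among the steadiest members, at 231, 238, 217, 229 and 230.5 CPM in AAV-Osm hearts and 195, 221, 219 and 228 CPM in AAV-Null hearts. Its log2 fold change was 0.08 (SE 0.11, 95% interval -0.16 to 0.33, edgeR adjusted p = 0.970). The log2 fold changes of Cpt2, the inner-membrane palmitoyltransferase gene, and Crat, carnitine acetyltransferase, were 0.08 (SE 0.16) and 0.14 (SE 0.17). Crat had 491, 577, 575, 395 and 476 CPM in AAV-Osm hearts, against 357, 395, 535 and 544 CPM in AAV-Null hearts, with AAV-Null 1 the lowest.

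Cpt1b encodes the muscle form of carnitine palmitoyltransferase at the outer membrane, the rate-limiting entry step. It had only 1.51, 3.16, 3.14, 2.18 and 1.47 CPM in AAV-Osm hearts, against 2.66, 1.94, 1.81 and 0.636 CPM in AAV-Null hearts, and AAV-Null 4 was the lowest. These are 13 to 58 reads per library, against at least 238 for every other member, and the interval of the log2 fold change, -0.43 to 1.16, reached past a 2-fold rise. In GENCODE M21, 94.8% of the exon bases of Cpt1b (chr15:89416405-89425862, minus strand) also belong to Gm44502, a gene on the same strand that was not analysed here. The counting of reads in shared exons is not given in the sources used here, so the low Cpt1b value is uncertain as a level.

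Malonyl-CoA blocks that entry step. Acacb, the acetyl-CoA carboxylase that makes it at the mitochondrial surface, had 241, 313, 358, 276 and 253 CPM in AAV-Osm hearts, against 261, 263, 237 and 232 CPM in AAV-Null hearts. AAV-Osm 2, 3 and 4 lay above all AAV-Null values and AAV-Osm 1 and 5 among them. Acacb had the smallest p of the members (log2 fold change 0.21, SE 0.14, 95% interval -0.09 to 0.52, unadjusted p = 0.157, edgeR adjusted p = 0.929). Mlycd, the decarboxylase that removes malonyl-CoA, had 130.1, 166, 169.9, 129.5 and 146 CPM in AAV-Osm hearts, against 128, 136, 154 and 157 CPM in AAV-Null hearts, and the groups interleaved (log2 fold change 0.05, SE 0.14).

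The acyl-CoA dehydrogenases, which take the chain-length classes from very long (Acadvl) through long (Acadl) and medium (Acadm) to short (Acads), had log2 fold changes from -0.15 to 0.08, and 0 of 4 passed. Acadvl had 1550, 1874, 2066, 1619 and 1366 CPM in AAV-Osm hearts, against 1297, 1417, 1746 and 2166 CPM in AAV-Null hearts, with the lowest and the highest value both in AAV-Null. Exons of Dvl2 on the opposite strand cover 44.6% of its exon bases (Dvl2 itself averaged 4.70 ± 0.728 CPM in AAV-Osm and 4.31 ± 0.391 CPM in AAV-Null hearts), and the strand setting of the counting is not given in the sources used here. Acadm had 831, 749, 679, 853 and 1119 CPM in AAV-Osm hearts, against 894, 947, 755 and 647 CPM in AAV-Null hearts. Its highest library was AAV-Osm 5 and its lowest AAV-Null 4, where Acadvl was at its highest. Acads ran from 244 to 422 CPM in AAV-Osm hearts, which enclosed its 329 to 374 CPM in AAV-Null hearts.

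The hydratase, hydroxyacyl dehydrogenase and thiolase steps had 4 positive and 2 negative log2 fold changes and 0 of 6 passed. Acaa2, the mitochondrial thiolase, was the most abundant per length, with 1226, 1493, 1347, 873 and 1033 CPM in AAV-Osm hearts, against 806, 933, 1309 and 1473 CPM in AAV-Null hearts. The groups covered the same range (log2 fold change 0.08, SE 0.21, edgeR adjusted p = 0.986). Hadh, the medium- and short-chain hydroxyacyl dehydrogenase, had one of the widest spreads: 389, 331, 382, 613 and 839 CPM in AAV-Osm hearts, against 722, 765, 446 and 359 CPM in AAV-Null hearts. Its interval, -0.80 to 0.47, had the lowest lower bound of the members. Echs1, the short-chain hydratase, and Acaa1a, a peroxisomal thiolase, had log2 fold changes of 0.06 (SE 0.17) and -0.08 (SE 0.18).

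Hadha varied little, with 1837, 2136, 2524, 2135 and 2064 CPM in AAV-Osm hearts, against 1919, 2013, 1789 and 2064 CPM in AAV-Null hearts. Hadhb varied more, with 1105, 827, 689, 876 and 1397 CPM in AAV-Osm hearts, against 1005, 1085, 805 and 587 CPM in AAV-Null hearts. The library highest for Hadha, AAV-Osm 3, was the second lowest for Hadhb, and their starts lie 272 bases apart. Neither differed between groups (log2 fold changes 0.14, SE 0.13, and 0.17, SE 0.22, edgeR adjusted p = 0.954 and 0.970).

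The enzymes that handle unsaturated chains were 3 with a negative and 1 with a positive log2 fold change, and 0 of 4 passed. Ech1, the dienoyl-CoA isomerase, had 1481, 1405, 1405, 2007 and 1772 CPM in AAV-Osm hearts, against 1594, 1858, 1742 and 1812 CPM in AAV-Null hearts. AAV-Osm hearts 1, 2 and 3 lay below all AAV-Null hearts and AAV-Osm 4 above them (log2 fold change -0.12, SE 0.15, edgeR adjusted p = 0.967). Decr1, the dienoyl-CoA reductase, had 632, 693, 634, 455 and 452 CPM in AAV-Osm hearts, against 341, 391, 634 and 724 CPM in AAV-Null hearts, a 2.12-fold range across libraries. The enoyl-CoA isomerase genes Eci1 and Eci2 had log2 fold changes of -0.03 (SE 0.18) and -0.06 (SE 0.12).

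For the electron transfer flavoprotein, Etfa had 479, 286, 233, 379 and 659 CPM in AAV-Osm hearts, against 465, 506, 366 and 222 CPM in AAV-Null hearts. Etfb had 1031, 1360.0, 1261, 1439 and 1074 CPM in AAV-Osm hearts, against 1069, 1203, 1309 and 1621 CPM in AAV-Null hearts. AAV-Null 4 was the lowest library for Etfa and the highest for Etfb. Log2 fold changes were 0.06 (SE 0.30) and -0.08 (SE 0.16). On the same strand Gm45233 shares 68.3% of the exon bases of Etfb and was not analysed here, so the Etfb level is uncertain. For Etfdh, the oxidoreductase that passes the electrons to ubiquinone, it was 0.17 (SE 0.15). Acot13, a mitochondrial acyl-CoA thioesterase gene, was the steadiest member, with a 1.20-fold range over the 9 libraries: 309, 334, 315, 369.7 and 327 CPM in AAV-Osm hearts, against 335, 358, 356 and 367 CPM in AAV-Null hearts (log2 fold change -0.10, SE 0.12).

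The regulators had 3 positive and 3 negative log2 fold changes, and 0 of 6 passed. Ppara had 106, 134, 148, 158 and 129 CPM in AAV-Osm hearts, against 184, 163, 131 and 141 CPM in AAV-Null hearts. The highest pair was in AAV-Null and the other libraries interleaved (log2 fold change -0.20, SE 0.15, 95% interval -0.52 to 0.13, edgeR adjusted p = 0.935). Ppargc1a, the gene of PGC-1α, had 93.5, 116, 119, 160.4 and 108 CPM in AAV-Osm hearts, against 132, 141, 102 and 94.3 CPM in AAV-Null hearts, with a log2 fold change of 0.02 (SE 0.18, 95% interval -0.36 to 0.40). Esrra, the gene of ERRα, had 121, 146, 139, 198 and 153 CPM in AAV-Osm hearts, against 183, 204, 159 and 146 CPM in AAV-Null hearts (log2 fold change -0.19, SE 0.16). Ppard, Ppargc1b and Rxra had log2 fold changes of -0.15 (SE 0.19), 0.16 (SE 0.22) and 0.06 (SE 0.15).

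The spread within groups had a shape of its own. After each gene's own group mean was removed on the log2 scale, the first principal component held 54.3% of the members' variance. Genes of 1 pathway did not move as a block: Etfa correlated over 0.7 across the 9 libraries with 8 members (Hadhb, Acadm, Acsl1, Cd36, Hadh, Cpt2, Acadl and Ppard) and under -0.7 with 5 (Acaa1a, Acadvl, Rxra, Etfb and Decr1). The correlation was 0.99 for Etfa with Hadhb, from different complexes, and -0.77 for Etfa with its partner Etfb. For Hadha with Hadhb it was -0.55. These values describe 9 libraries that share depth and composition differences. In AAV-Null 4 and AAV-Osm 3 the Etfa group was low and the opposed group high, and in AAV-Osm 5 and AAV-Null 2 the reverse held.

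**Figure D3:**
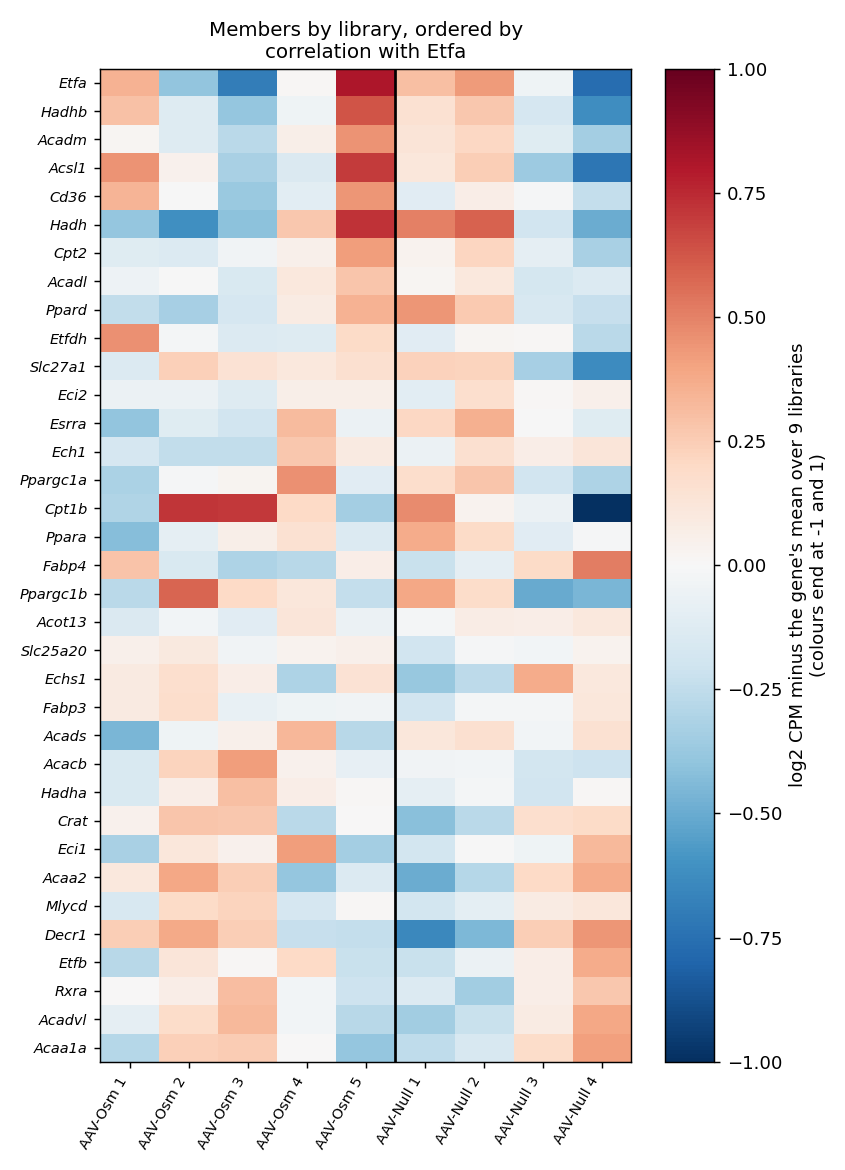
Log2 CPM of each gene minus its mean over the 9 libraries, AAV-Osm left of the line and AAV-Null right; red is above and blue below the mean. Genes run from most to least correlated with Etfa, and AAV-Null 4 and AAV-Osm 3 are blue at the top where AAV-Osm 5 is red.

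Partner ratios put numbers on this. Etfb over Etfa, in CPM per kilobase, was 3.48, 7.69, 8.78, 6.14 and 2.64 in AAV-Osm hearts, against 3.72, 3.85, 5.79 and 11.8 in AAV-Null hearts, a 4.48-fold range. Because Etfb shares exon bases with Gm45233, as given above, the level of this ratio is uncertain. Hadha over Hadhb was 0.900, 1.40, 1.98, 1.32 and 0.799 in AAV-Osm hearts, against 1.03, 1.004, 1.20 and 1.90 in AAV-Null hearts, a 2.48-fold range. Libraries with a high ratio for one pair had a high ratio for the other, in both groups. Of 4 ratios compared between groups by a two-sided exact permutation test over 126 regroupings, also Acadvl over Acadm and Fabp4 over Fabp3, the smallest p was 0.167, for Fabp4 over Fabp3, and 0.667 adjusted over the 4. For Etfb over Etfa the difference in mean log2 ratio, AAV-Osm minus AAV-Null, was -0.10 (exact permutation p = 0.849, adjusted over the 4, 0.984). These ratios were chosen after the values were seen.

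The ratios were set beside a cardiomyocyte marker sum and GC content, without a test. The 14 cardiomyocyte markers summed to 102890, 134703, 130969, 120231 and 101453 CPM in AAV-Osm hearts, against 100125, 102539, 113155 and 128823 CPM in AAV-Null hearts. The 3 libraries with the highest sums, from 128823 to 134703 CPM, were also the 3 with the highest Etfb over Etfa and Hadha over Hadhb. AAV-Null 4, among these 3, also had the highest macrophage, fibroblast, endothelial and mesothelial marker sums of all libraries. The GC content of the members' longest coding transcripts ran from 38.4% to 61.8%. Over the 35 members, the correlation of a library's deviations with GC content ran from -0.63 in AAV-Osm 1 to 0.54 in AAV-Osm 3. Among AAV-Null hearts it ran from -0.14 in AAV-Null 3 to 0.08 in AAV-Null 4, the library with the highest Etfb over Etfa. Over the 13118 genes with a GC value, it ran from -0.25 in AAV-Null 2 to 0.27 in AAV-Null 4. Among AAV-Osm hearts it ran from -0.35 in AAV-Osm 5 to 0.43 in AAV-Osm 3 over those genes. With each library's trend on GC content removed, the range of Etfb over Etfa was 3.03-fold and that of Hadha over Hadhb 1.99-fold. Acadvl over Acadm went from a 2.74-fold to a 2.20-fold range, while Fabp4 over Fabp3 widened from 1.65-fold to 1.98-fold. Of 595 member pairs, 84 correlated over 0.7 and 69 under -0.7 before this removal, against 87 and 62 after it. Pairs of other genes were not counted. The parts of cell composition and GC content in these ratios were not tested.

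**Figure D4:**
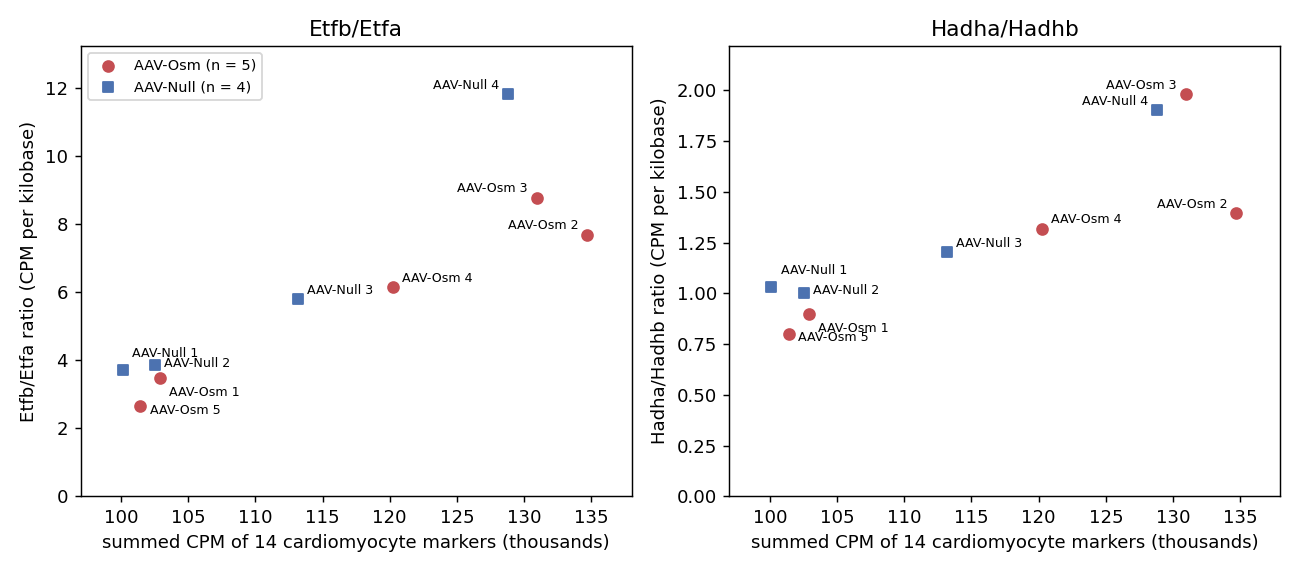
Ratio of partner subunits in CPM per kilobase (y axes, from 0) against the summed CPM of 14 cardiomyocyte markers (x axes, not from 0), 1 point per library. Both ratios are low in the 4 libraries with the smallest sums and high in the 3 with the largest, and AAV-Osm and AAV-Null hearts are mixed along the axis.

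Of 69 further genes of fatty acid handling on a wider list, 64 were tested, and 0 rose, 0 fell and 64 did not pass in edgeR. Their median log2 fold change was 0.09. Of the 64, 5 had an unadjusted p under 0.05, against 5.97% of all genes, and 4 of the 5 are described. Gpihbp1, which anchors lipoprotein lipase on capillary endothelium, had 78.3, 71.9, 68.8, 88.9 and 53.9 CPM in AAV-Osm hearts, against 90.5, 95.2, 94.7 and 151 CPM in AAV-Null hearts. The groups did not overlap, which held for 2.28% of all genes (log2 fold change -0.58, SE 0.18, edgeR adjusted p = 0.579). Cpt1a, the liver-type palmitoyltransferase also expressed in heart, had 36.6, 38.7, 31.1, 20.5 and 31.5 CPM in AAV-Osm hearts, against 17.8, 17.2, 25.9 and 23.4 CPM in AAV-Null hearts. Only AAV-Osm 4 lay among the AAV-Null values (log2 fold change 0.59, SE 0.19, edgeR adjusted p = 0.579). Nrip1, a corepressor gene, and Slc27a3, of the fatty acid transport protein family, had log2 fold changes of 0.72 (SE 0.27) and 0.61 (SE 0.24) at under 5 CPM in every library. The groups did not overlap for Slc27a3 either. Of the 64 genes, 1 was thus higher without overlap and 1, Gpihbp1, lower.

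Genes known as PPAR-responsive made a further list of 20, picked with earlier results in view, which shares some genes, Cpt1a among them, with the wider list. Of the 17 tested 2 rose, 0 fell and 15 did not pass, where 0.0834% of all genes rose and 0.0379% fell. Ucp3, a mitochondrial uncoupling protein, had 80.3, 106, 45.8, 47.8 and 65.5 CPM in AAV-Osm hearts, against 12.4, 16.5, 18.3 and 15.3 CPM in AAV-Null hearts. Angptl4, an inhibitor of lipoprotein lipase, had 12.3, 26.5, 25.4, 35.3 and 16.0 CPM in AAV-Osm hearts, against 3.46, 3.38, 6.81 and 7.78 CPM in AAV-Null hearts. The intervals of their log2 fold changes, 1.61 to 2.67 for Ucp3 and 1.37 to 2.83 for Angptl4, lay above the upper bound of all 35 fatty acid genes, the highest of which was 1.16 for Cpt1b and 0.84 for the rest. Of the listed genes that did not pass, the arrestin-family gene Txnip averaged 439 ± 86.5 CPM in AAV-Osm hearts and 230.2 ± 39.9 CPM in AAV-Null hearts, and the groups did not overlap (edgeR adjusted p = 0.114, log2 fold change 0.93, SE 0.18). The cytochrome P450 gene Cyp4b1 averaged 17.4 ± 2.52 CPM in AAV-Osm hearts and 23.4 ± 2.33 CPM in AAV-Null hearts, with an edgeR adjusted p of 0.606 (log2 fold change -0.42, SE 0.14). Of the 17 genes, 7 had an unadjusted edgeR p under 0.05, 6 of them higher and only Cyp4b1 lower, against 5.97% of all genes. Groups did not overlap for 3 of 17, against 2.28% of all genes. Because earlier results guided the choice of this list, these shares cannot measure an enrichment of PPAR-responsive genes.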

How the data were processed

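RNA-seq libraries from the heart apex, 5 AAV-Osm and 4 AAV-Null, were grouped by their treatment label. The submitters' processing notes name build mm10, the aligner STAR 2.5.2b, and featureCounts and Subread 1.5.1. The annotation, strand setting and handling of shared reads are not given there or in the labels. The authors deposited raw read counts per gene, and 4141 blank lines were left out. Every one of the 13192 genes exceeded 0.5 CPM in at least 4 libraries, and lower genes were not analysed here.

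Counts were tested over all 13192 genes with edgeR 4.0.16 (R 4.3.3): TMM factors, filterByExpr (0 genes removed), group as the only term, robust quasi-likelihood F test, two-sided, Benjamini-Hochberg adjustment over all genes, threshold 0.05. Intervals are 95%. Levels between genes are CPM per kilobase of deposited exon length. DESeq2 1.42.0, limma 3.58.1, other scalings, filters and left-out libraries were alternatives. GC content is from GENCODE M21 transcripts, found for 99.4% of genes.

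Members and lists were chosen with earlier results of these data known. The rule for naming genes covered members by role, the most abundant per length in each role, Cpt1b, Ppara and Ppargc1a, and listed genes with an unadjusted p under 0.05, at most 6 per list; a listed gene is not reported here, and values given for other members were chosen after they were seen.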

Additional observations from a re-analysis of the deposited data

Results flagged for a closer look

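Of 70 groups of libraries checked, 1 held a library far from the others, while chance flags about 1 in 20. Echs1, the short-chain enoyl-CoA hydratase gene, had 236 CPM in AAV-Osm 4, and the other AAV-Osm hearts had 307 to 329 CPM. AAV-Null hearts had 225, 244, 378 and 314 CPM, so the AAV-Osm 4 value lies within their range.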

How the results depend on the processing

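Under all 21 alternatives 0 of the 35 members passed the threshold. Their median log2 fold change, 0.06 with all libraries, was -0.0015 to 0.072 with a library left out in turn, the lowest without AAV-Null 1. Of the wider list, 0 of 64 passed in the 20 others, and 1, Cpt1a, passed in limma-voom with quality weights. Since no member passed, signs are descriptions: 13 members kept theirs in all alternatives run and 22 did not. Hadh ranged from -0.70 to 0.01 and Decr1 from -0.02 to 0.65. An unadjusted p under 0.05 was given to Hadh without AAV-Null 4 and AAV-Osm 5, and to Decr1 and Crat without AAV-Null 3 and AAV-Null 4, fits in which 8.83% and 9.99% of all genes had one. The count over all genes was 16 in edgeR, 53 in DESeq2, 13 in limma-voom and 170 with quality weights, 5 with a mean of at least 5 CPM, and 4 to 11 with a library left out. A GC offset, added after seeing the data, gave 18. The filter at 5 CPM removed Cpt1b, which has no value there. No paired analysis was possible because the labels give the libraries no shared replicate numbers.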
